A study of Chlorocebus sabaeus with 45 samples.

Results

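The genes described here are 9 adhesion molecules, most of which leukocytes use to hold on to vessel walls and to each other, chosen by symbol: the intercellular adhesion molecules ICAM1, ICAM2, ICAM3 and ICAM4, the selectin ligand SELPLG, and the integrin chains ITGAL, ITGAM, ITGB2 and ITGA4. A row under the symbol was found for 8 of the 9 among 33992 genes, ICAM3 was not analysed here, and all 8 were among the 18751 genes that passed the filter on low values. Whole blood of 15 juvenile male vervet monkeys (Chlorocebus sabaeus) was sequenced at each of 3 time points, which gave 45 libraries. The animals were born in the wild on St. Kitts, each was taken from a different troop, and the labels name no genotype or treatment. Psychosocial stress was modelled by removal from the troop and individual housing under conditions like those of a quarantine, and the comparisons ask how blood gene expression differed after 3 and 14 days of it. Day 0 blood was taken in the field, right after trapping, under ketamine and xylazine. Day 3 and day 14 blood was taken in the facility under dexmedetomidine and midazolam, so that sedation, place and stress cannot be told apart in any comparison with day 0. No group of unstressed animals followed over the same days was analysed here.

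Leukocytes leave the blood in steps. Selectins first catch glycans carried by P-selectin glycoprotein ligand 1, the product of SELPLG, and the cell rolls. Integrins, which are pairs of an alpha and a beta chain, are then switched to a binding state from inside the cell and grip members of the ICAM family and VCAM-1 on the endothelium. ITGB2 encodes the beta chain shared by LFA-1 (with ITGAL) and Mac-1 (with ITGAM), and ITGA4 encodes the alpha chain of VLA-4 (with ITGB1) and of the gut-homing receptor (with ITGB7). The ICAM proteins are ligands of the ITGB2 integrins. ICAM1 is induced by inflammatory signals on many cells, ICAM2 is made constitutively by endothelium, platelets and lymphocytes, and ICAM4 is the Landsteiner-Wiener blood group antigen of red cells.

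ICAM1 and ICAM4 rose at both later time points, and ICAM2, SELPLG and ITGAM fell on day 14 vs. day 0. ITGAL, ITGB2 and ITGA4 did not pass the test in any comparison. The falls of SELPLG and ITGAM were lost when 4 libraries that stood apart were left out, whereas the fall of ICAM2 and the rises of ICAM1 and ICAM4 from day 0 were not. Levels are FPKM, fragment counts adjusted for the length of the gene and the size of the library, after a further scaling between libraries by TMM, a trimmed mean of log ratios. Fold changes are on the scale of log2(FPKM + 0.1), with the standard error (SE) and the Benjamini-Hochberg adjusted p from limma over all tested genes, and a gene was called at an adjusted p under 0.05.

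Between 13216275 and 31469332 fragments per library fell on genes, and the medians for days 0, 3 and 14 were 22963964, 22754349 and 22758493. Each library's profile was compared with the other libraries of its time point across genes. In 4 libraries the median correlation was under 0.95. They were the day 0 libraries of animals 7, 11 and 15 and the day 3 library of animal 8. In the 3 day 0 libraries the summed level of 12 neutrophil markers was between 30799 and 42906 FPKM, against 1676 to 12210 in the other 12. Monocyte markers were also higher there (961 to 1231 against 263 to 704 FPKM) and B cell markers lower (78.1 to 140.0 against 188 to 573). Markers of red cells, neutrophils, monocytes and lymphocytes were present in the blood, whereas all 8 endothelial markers (among them CDH5, KDR and TEK) were under 1 FPKM in every library. In bulk blood, fewer cells of a type and less RNA per cell cannot be told apart.

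Counted together, 2 of the 8 genes were called on day 3 vs. day 0, both up, where 12% of all tested genes were called (5.85% up, 6.20% down, and 19.0% in all with the block by animal). Against day 0, 5 of 8 were called by day 14, of which 2 rose and 3 fell, where 36.1% of all tested genes were called (16.8% up, 19.3% down). Between the later time points 1 of 8 was called, where 14.4% of all genes were (7.10% up, 7.26% down). With the block these were 3 of 8 (2 rises and 1 fall) and 25.4%. The count of 1 of 8 is near the background. The median log2 fold change of the 8 genes was 0.13, 0.06 and −0.14 in the 3 comparisons, and that of all tested genes 0.01, −0.05 and −0.05. The comparisons share libraries, so they are not independent of one another. Without TMM scaling the median of all genes was −0.36 between day 0 and day 14 and −0.35 between day 3 and day 14, and changes that involve the last time point are therefore relative to the typical gene. In the second of these comparisons, without that scaling, ICAM4 was up and 5 of the 8 genes (ICAM2, SELPLG, ITGAL, ITGAM and ITGB2) were down. Of all tested genes, 3.23% were then up and 35.2% down. In the first, without it, ICAM1 and ICAM4 were still up and ICAM2, SELPLG and ITGAM still down. There, 7.79% of all tested genes were up and 41.7% down.

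ICAM1 had the lowest level of the 8 genes at every time point, and by day 3 it was higher in all 15 animals. On day 0 its lowest level was 1.65, its median 3.20 and its highest 6.21 FPKM. On day 3 these values were 3.57, 5.89 and 8.81, and on day 14 they were 4.0, 7.27 and 20.8. The 3 time points overlapped, but 13 of the 15 day 14 libraries were above the highest day 0 library. The successive means were 3.26 ± 1.25, 6.28 ± 1.5 and 9.63 ± 4.89 FPKM (SD, n = 15). The log2 fold change was 0.97 on day 3 vs. day 0 (SE 0.19, adjusted p = 0.00114) and 1.47 on day 14 vs. day 0 (SE 0.19, adjusted p = 5.34e-07). The animals diverged after day 3. In animals 14 and 15 ICAM1 reached 17.8 and 20.8 FPKM on day 14, whereas in animal 13 it was 4.06, 5.45 and 4.0 FPKM over the 3 time points. Between day 3 and day 14 the log2 fold change was 0.50 (SE 0.19, adjusted p = 0.0625), with 10 animals higher and 5 lower. With the animal as a block it passed the test (adjusted p = 0.0345), as it did when animal 7 or animal 13 was left out (lowest adjusted p 0.039). Without TMM scaling this log2 fold change was only 0.15 (adjusted p = 0.409). Between 183 and 1386 fragments lay behind each ICAM1 value.

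**Figure D1:**
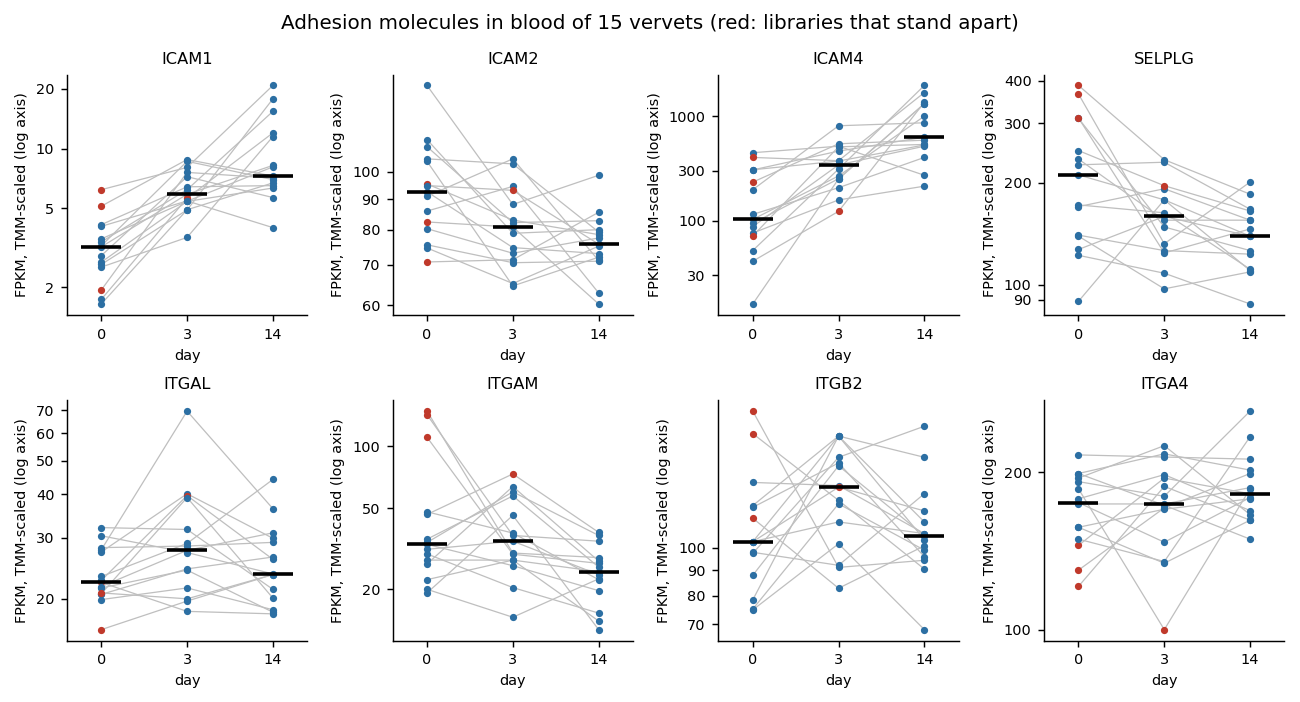
FPKM after TMM scaling (log axis, a separate scale in each panel) of the 8 genes on days 0, 3 and 14. Points are libraries, grey lines join the 3 libraries of an animal, black bars are medians over 15 animals, and red points are the 4 libraries that stood apart. The median of ICAM1 goes from 3.20 to 5.89 to 7.27 FPKM and that of ICAM4 from 103 to 342 to 629, while 3 red day 0 points lie at the top of the ITGAM panel.

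ICAM4 also rose, from a level that differed widely between animals. Its lowest level on day 0 was 16.0 FPKM in animal 9, its median 103 and its highest 447 in animal 13. On day 3 the lowest, median and highest levels were 123, 342 and 809 FPKM, and on day 14 they were 214, 629 and 1965. On day 14, 12 of the 15 libraries were above the highest day 0 library. The log2 fold change was 1.46 on day 3 vs. day 0 (SE 0.37, adjusted p = 0.00814), with 14 animals higher. By day 14 it was 2.61 (SE 0.37, adjusted p = 1.63e-06), again with 14 animals higher. This corresponds to means of 170.0 ± 138, 367 ± 179 and 879 ± 534 FPKM (SD, n = 15). Of the 2 animals at the ends of the day 0 range, which were picked for those values, both were higher on day 3, and on day 14 one was above and the other below its day 0 level. Animal 9 went from 16.0 to 251 to 1313 FPKM, and animal 13 from 447 to 516 to 272. The SD of the log2 values was 1.35, 0.72 and 0.95 on days 0, 3 and 14, the largest of the 8 genes at each time point.

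ICAM4 was also the only gene of the 8 called on day 14 vs. day 3, with a log2 fold change of 1.15 (SE 0.37, adjusted p = 0.032) and higher values in 14 animals. That call did not hold under every alternative. It was lost when animal 2, 3, 8, 12 or 14 was left out, with adjusted p-values up to 0.0961, with a term for the RNA integrity number (0.0824), and without the 4 libraries that stood apart (0.0509). The log2 fold change stayed between 0.98 and 1.30 with any 1 animal left out. It was 1.03 with the RNA integrity number and 1.08 without the 4 libraries. Without TMM scaling it was 0.80 and still called (adjusted p = 0.0303).

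Red-cell transcripts moved with ICAM4 and ICAM1. All 12 erythroid markers (among them ALAS2 and SLC4A1) were called up on day 14 vs. day 0, as were 8 of 12 by day 3, where 16.8% and 5.85% of all tested genes were up. Their summed level ran from 394 to 21067 FPKM before the move, from 3368 to 38122 on day 3 and from 6567 to 61227 at the end, and none of the 12 was at 0 in every library. It was highest on day 0 in animal 13 and lowest in animal 9, the same animals as for ICAM4. In animal 13 the sum was 21067, 15309 and 8162 FPKM over the 3 time points, and in animal 9 it was 394, 7721 and 36086. Across the 45 libraries, ICAM4 and the erythroid sum had a Pearson r of 0.95, and 0.91 after removal of the time point means. For ICAM1 the values were 0.86 and 0.73. These correlations are descriptions over libraries that share animals and a scaling, and the part of red-cell RNA in the rises was not tested.

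**Figure D2:**
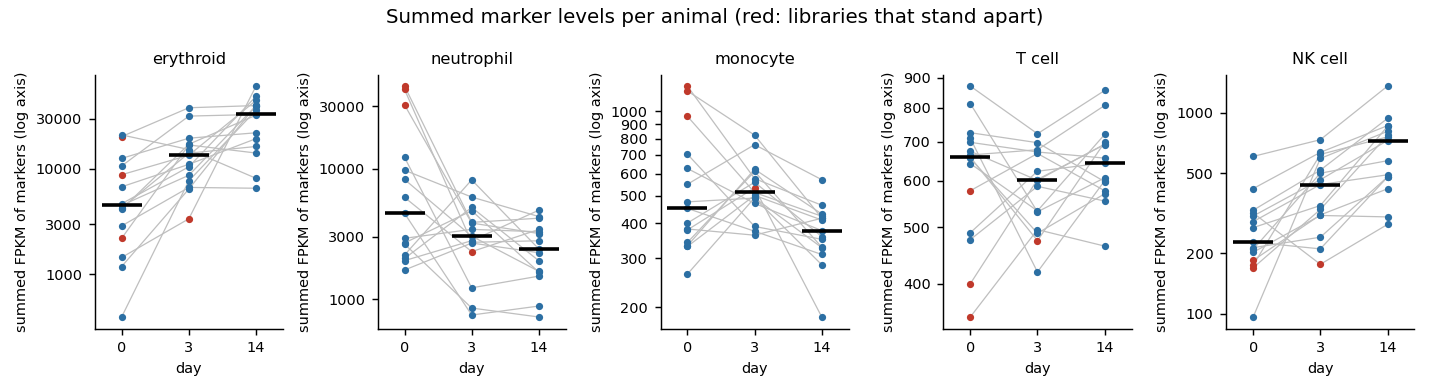
Summed FPKM of the markers of 5 cell types (log axis, a separate scale in each panel) on days 0, 3 and 14. Points are libraries, grey lines join the libraries of an animal, black bars are medians over 15 animals and red points are the 4 libraries that stood apart. The median erythroid sum goes from 4518 to 13517 to 32934 FPKM, and 3 red day 0 libraries lie above the others in the neutrophil panel.

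ICAM1 and ICAM4 resembled each other more than any other pair of the 8 genes. Their log2 levels had an r of 0.89 over the 45 libraries, and of 0.76 after removal of the time point means. In the reference annotation table they are neighbours on chromosome 6. The ratio of ICAM4 to ICAM1 had medians of 39.7, 61.7 and 81.0 over the 3 time points, and it was above day 0 in 9 of 15 animals on day 3 and in 13 on day 14. Among 10939 genes with a mean of at least 5 CPM (fragments scaled to the size of the library), the 5 whose log2 levels followed ICAM4 most closely were SLC25A39, PAQR9, ASCC2, GLRX5 and HBQ1, with r between 0.95 and 0.96. For ICAM1 they were BCL2L1, ASCC2, LOC103232070, E2F4 and RNF10, with r between 0.92 and 0.94. ASCC2 was thus among the 5 nearest genes of both.

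ICAM2 fell slightly on day 14. Its lowest, median and highest levels on day 0 were 70.8, 92.6 and 139 FPKM, on day 3 they were 64.6, 80.9 and 105, and on day 14 they were 60.3, 75.8 and 98.6. The 3 ranges overlapped. The mean went from 94.3 ± 18.0 to 81.9 ± 12.7 and then 76.3 ± 9.17 FPKM (SD, n = 15). The log2 fold change was −0.29 on day 14 vs. day 0 (SE 0.09, adjusted p = 0.0065), with 13 animals lower, and it was −0.30 (adjusted p = 0.00592) without the libraries that stood apart. At day 3 it was −0.20 (SE 0.09, adjusted p = 0.132), with 12 animals lower. From day 3 to day 14 it was −0.10 (SE 0.09, adjusted p = 0.467), with 8 animals higher and 7 lower. ICAM2 thus followed another course than the other ICAM genes, and the median ratio of ICAM2 to ICAM1 was 31.7, 12 and 10.8 over the 3 time points, below day 0 in 15 of 15 animals at both later time points. Its 5 nearest genes were EGLN2, SLFN13, STK38, PRMT2 and SLC5A3, with r between 0.66 and 0.71, lower than for any other of the 8.

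SELPLG, whose product is the main selectin ligand of leukocytes, fell on day 14 vs. day 0. Its lowest, median and highest levels were 89.2, 211 and 388 FPKM on day 0, 97.1, 159 and 234 on day 3, and 87.6, 139 and 201 on day 14. The spread narrowed at the upper end, and the lowest levels stayed close together. The means were 217 ± 92.6, 161 ± 40.9 and 141 ± 31.1 FPKM (SD, n = 15). The log2 fold change was −0.53 on day 14 vs. day 0 (SE 0.17, adjusted p = 0.0117), with 13 animals lower. Neither step alone was called: day 3 vs. day 0 gave −0.35 (SE 0.17, adjusted p = 0.182), and from day 3 to day 14 it was −0.18 (SE 0.17, adjusted p = 0.487). The day 0 libraries that stood apart were the highest in SELPLG, at 311 to 388 FPKM, against 89.2 to 310.0 in the other 12. Without the 4 libraries the log2 fold change on day 14 vs. day 0 was −0.29 (adjusted p = 0.151), and with a term for the RNA integrity number it was −0.49 (adjusted p = 0.075).

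Those genes of selectins and their ligands that were called on day 14 vs. day 0 were down. Of 15 listed genes for selectins and selectin ligand synthesis, 14 were tested. By day 14, 7 of them were down and 0 up relative to day 0, and by day 3, 4 were down and 1 up. Of all tested genes, 36.1% were called on day 14 (19.3% down) and 12% on day 3 (6.20% down). FUT7, the fucosyltransferase that completes the sialyl Lewis x cap on this ligand, fell from 82.5 ± 81.0 FPKM to 20.1 ± 8.08 on day 3 (log2 fold change −1.48, adjusted p = 0.00273). On day 14 it was 17.9 ± 5.48 FPKM (log2 fold change −1.61 from day 0, adjusted p = 0.000143). CD24, a P-selectin ligand, fell by 1.22 on day 3 (adjusted p = 0.0251) and by 1.82 on day 14 on the log2 scale (adjusted p = 0.00016). GCNT1 was also down on day 3, and the rise was that of SELP, which encodes P-selectin of platelets and endothelium (GCNT1 and SELP were named after their values were seen). Without the libraries that stood apart, FUT7 was called in both comparisons, with smaller log2 fold changes of −1.0 and −1.07, and SELP on day 3. CD24 and GCNT1 were then called on day 14 only (day 3 adjusted p = 0.227 and 0.141), and the log2 fold changes of CD24 were −0.58 and −1.19.

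ITGAM, the alpha chain of Mac-1, which marks neutrophils and monocytes, fell on day 14 vs. day 0. Its lowest, median and highest levels were 19.2, 33.2 and 149 FPKM on day 0, 14.6, 34.4 and 73.4 on day 3, and 12.7, 24.4 and 38.0 at the end. The medians of the first 2 time points were close, and the day 14 range overlapped the lower part of both, with 3 libraries below the lowest day 0 library and 2 below the lowest of day 3. The means were 51.8 ± 44.1, 39.0 ± 17.3 and 24.8 ± 7.69 FPKM (SD, n = 15). Over the full interval the log2 fold change was −0.77 (SE 0.26, adjusted p = 0.0165), with 12 animals lower. Up to day 3 it was −0.18 (SE 0.26, adjusted p = 0.721), with 7 animals higher and 8 lower. The most even difference was that between the later time points, where 14 of 15 animals were lower on day 14: the log2 fold change was −0.59 (SE 0.26, adjusted p = 0.108) and the block by animal gave an adjusted p of 0.0435.

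The fall of ITGAM from day 0 rested on few libraries. In animals 7, 11 and 15 the day 0 level was 149, 111 and 143 FPKM, whereas in the other 12 animals it was between 19.2 and 47.9. The call was lost when animal 7 or animal 11 was left out (highest adjusted p 0.0543), and the log2 fold change was −0.31 (adjusted p = 0.215) without the 4 libraries that stood apart. A term for the RNA integrity number gave −0.51 (adjusted p = 0.235). Neutrophil transcripts were also lower on day 14 than on day 0, but by another course than ITGAM. Of 12 neutrophil markers, 6 were down by day 3 and 9 by day 14 relative to day 0, with none up and none at 0 in every library. Of all tested genes, 6.20% were down on day 3 and 19.3% on day 14. Their summed level ran from 1676 to 42906, from 758 to 8209 and from 732 to 4815 FPKM over the 3 time points. Of 10 monocyte markers, 4 were up by day 3 (5.85% of all tested genes), and 5 were down and 1 up by day 14, relative to day 0. The monocyte sum ran from 263 to 1231, from 362 to 823 and from 185 to 571 FPKM at the 3 time points. On day 14 vs. day 3, 0 of 12 neutrophil markers were called (median log2 fold change −0.31). Of the 10 monocyte markers, 4 were called in that comparison, all down (median −0.48), where 7.26% of all tested genes were down. ITGAM itself was at −0.18 by day 3 and lower in 14 of 15 animals over the later interval. ITGAM and the neutrophil sum had an r of 0.73 over the 45 libraries, and SELPLG and that sum one of 0.61. With the monocyte sum the values were close to these, 0.71 and 0.57. The part of these cells in the falls was not tested beyond leaving the libraries out.

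ITGAL, the alpha chain of LFA-1, which lymphocytes carry, was not called in any comparison. Its lowest, median and highest levels were 16.3, 22.3 and 32.1 FPKM on day 0, 18.4, 27.6 and 69.6 on day 3, and 18.1, 23.6 and 44.2 on day 14. The highest value, in animal 2 on day 3, stood well above the next one, 40.2 FPKM in animal 4. The log2 fold change was 0.30 on day 3 vs. day 0 (95% interval 0.02 to 0.59, adjusted p = 0.166), with 11 animals higher. By day 14 it was 0.11 (−0.18 to 0.40, adjusted p = 0.581), and between the later time points −0.19 (−0.48 to 0.09, adjusted p = 0.364). These intervals do not show that its level stayed the same.

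ITGB2, the common beta chain, was not called either. Its lowest, median and highest levels were 74.8, 103 and 190.0 FPKM on day 0, 82.8, 133 and 169 on day 3, and 68.2, 106 and 177 on day 14. The median was highest on day 3, where 10 of 15 animals were above their day 0 level. Relative to day 0 its log2 difference was 0.24 by day 3 (95% interval −0.03 to 0.50, adjusted p = 0.252) and 0.01 by day 14 (−0.25 to 0.27, adjusted p = 0.965), and between the later time points it was −0.23 (−0.49 to 0.04, adjusted p = 0.228). As with ITGAM and SELPLG, animals 7 and 15 had the highest levels on day 0, at 190.0 and 171 FPKM. Over the 45 libraries ITGB2 had an r of 0.59 with ITGAM, of 0.53 with ITGAL and of 0.41 with SELPLG.

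**Figure D3:**
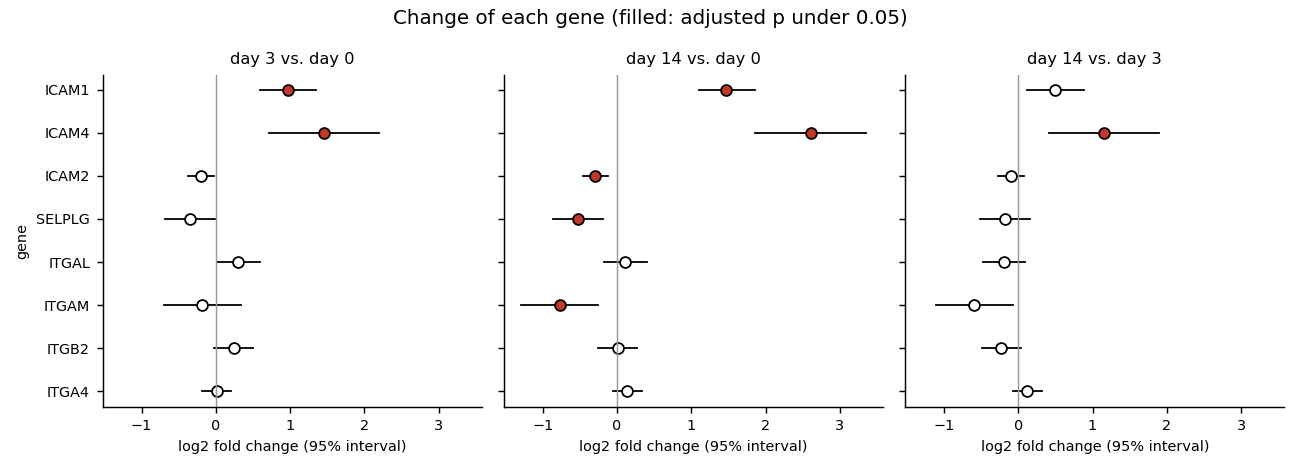
Log2 fold change (x axis) of the 8 genes in each comparison, with 95% intervals from limma. Filled points have an adjusted p under 0.05. ICAM1 and ICAM4 lie to the right of 0 on day 3 (0.97 and 1.46) and day 14 (1.47 and 2.61) vs. day 0, and ICAM2, SELPLG and ITGAM to the left on day 14 (−0.29, −0.53 and −0.77).

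The proportion of the alpha chains that pair with ITGB2 is given as a description, without a test. The ratio of ITGAM to ITGAL had medians of 1.46, 1.42 and 0.943 over the 3 time points. At the last of them it was below day 0 in 13 of 15 animals and below day 3 in 11, and ITGAM exceeded ITGAL in 11, 12 and 7 animals at the 3 time points. The 3 highest ratios were those of the day 0 libraries that stood apart, up to 6.88. ITGAX, the alpha chain of the complement receptor of monocytes and dendritic cells, and ITGAD, a related chain found at 0.406 ± 0.341 FPKM on day 0, complete the family. ITGAX went from 15.1 ± 7.13 FPKM on day 0 to 14.0 ± 5.83 and 11.1 ± 4.30 without a call (adjusted p = 0.876 and 0.222 against day 0). ITGAD was not called (0.456 and 0.305), but the block by animal gave adjusted p-values of 0.0244 and 0.00725 for log2 differences of 0.44 and 0.47. The 4 alpha chains summed and divided by ITGB2 had medians of 0.754, 0.622 and 0.567, below day 0 in 13 and 14 of 15 animals. All of these ratios are per length of gene.

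ITGA4, the alpha chain that binds VCAM-1 and MAdCAM-1, was not called in any comparison. Its lowest, median and highest levels were 121, 175 and 216 FPKM on day 0, 100.0, 174 and 225 on day 3, and 149, 182 and 262 on day 14. The medians were close together and the ranges overlapped. Relative to day 0 the log2 difference was 0.02 by day 3 (95% interval −0.18 to 0.21, adjusted p = 0.948) and 0.14 by day 14 (−0.06 to 0.34, adjusted p = 0.272), and between the later time points it was 0.12 (−0.07 to 0.32, adjusted p = 0.404). In the 3 day 0 libraries that stood apart ITGA4 was between 121 and 145 FPKM, under the 149 to 216 of the other 12, which is opposite to ITGAM. Of its partner chains, ITGB1 rose from 112 ± 23.2 FPKM on day 0 to 158 ± 49.4 on day 3 (log2 fold change 0.45, adjusted p = 0.0318) and 159 ± 31.2 on day 14 (0.51 from day 0, adjusted p = 0.00467, or 0.11 with 0.467 without TMM scaling). The other, ITGB7, was 55.5 ± 13, 65.7 ± 12 and 60.2 ± 10.9 FPKM and was not called (adjusted p = 0.123 and 0.375 against day 0), though the block by animal gave 0.0315 on day 3 vs. day 0. The ratio of ITGA4 to ITGB1 had medians of 1.61, 1.1 and 1.13, below day 0 in 13 of 15 animals at both later time points. Markers of T cells, which carry ITGA4, were called in 0 of 9 cases by day 3 and in 2 of 9 by day 14 (1 up and 1 down), where 12% and 36.1% of all tested genes were called, and their sum had a median of 658, 601 and 644 FPKM. NK cell markers were up in 5 of 8 cases on day 14 (16.8% of all tested genes), with a sum of 96.2 to 606 FPKM on day 0, 176 to 734 by day 3 and 278 to 1357 on day 14.

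**Figure D4:**
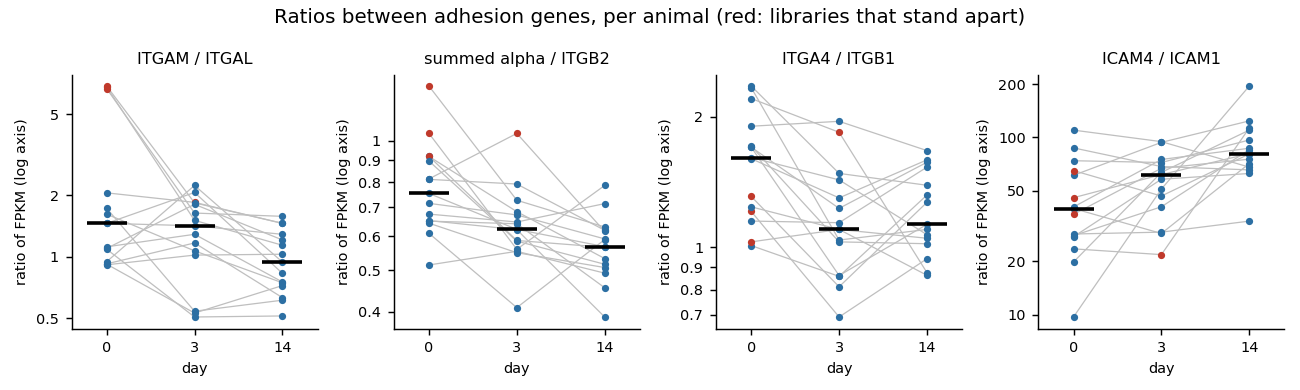
Ratio of FPKM values within each library (log axis, a separate scale in each panel) on days 0, 3 and 14 for ITGAM to ITGAL, the 4 summed alpha chains to ITGB2, ITGA4 to ITGB1 and ICAM4 to ICAM1. Points are libraries, grey lines join the libraries of an animal, black bars are medians over 15 animals and red points are the 4 libraries that stood apart. The median of ITGAM to ITGAL goes from 1.46 to 1.42 to 0.943 and that of ITGA4 to ITGB1 from 1.61 to 1.1 to 1.13.

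Per kilobase, the order of the 8 genes changed at its upper end. On day 0 SELPLG had the highest mean, 217 FPKM, followed by ITGA4 (171) and ICAM4 (170.0). These neighbours did not separate: SELPLG exceeded ITGA4 in 8 of 15 animals, and ITGA4 exceeded ICAM4 in 9. On day 3 ICAM4 came first and exceeded ITGA4, the next gene, in 14 animals, and on day 14 it did so in 15. From ITGB2 over ICAM2 to ITGAL the means descended in the same order at all 3 time points, and ITGAM, which was above ITGAL on days 0 and 3, had nearly its level on day 14 (24.8 and 26.0 FPKM, with ITGAL the higher in 8 of 15 animals). ICAM1 was last, below its nearest neighbour in 15 of 15 animals at each time point.

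Other genes of adhesion were taken from 6 lists with 85 genes, of which 77 were tested. Against day 0, 25 were called by day 3 (16 rises and 9 falls, 32.5% of the tested list) and 32 by day 14 (6 rises and 26 falls, 41.6%), where 12% and 36.1% of all tested genes were called. The share for day 14 is near that background, in which 16.8% were up and 19.3% down. With 1 animal left out at a time, the count for day 3 lay between 13 and 26. Without TMM scaling the rises and falls of the lists numbered 10 and 11 on day 3 and 2 and 47 on day 14. Of all tested genes, 3.78% were then up and 4.72% down on day 3, and 7.79% up and 41.7% down on day 14. Between the later time points 18 were called (2 rises and 16 falls, 23.4%, against 14.4% of all tested genes). With the block by animal 28 were called (25.4% of all tested genes), and without TMM scaling 1 rose and 45 fell (3.23% and 35.2% of all tested genes). The integrins of platelets accounted for the largest rises on day 3: ITGA2B went from 24.1 ± 24.7 to 76.1 ± 35.4 FPKM (log2 fold change 2.19, adjusted p = 0.000541) and ITGB3 from 23.7 ± 21.1 to 74.1 ± 33.6 (2.03, adjusted p = 0.000709). By day 14 both had fallen again, in 15 of 15 animals, to 29.3 ± 14.7 and 25.6 ± 13.9 FPKM (adjusted p = 0.0133 and 0.00626 against day 3). Platelet markers, of which ITGA2B and ITGB3 are members, were up in 8 of 9 tested cases on day 3 (5.85% of all tested genes). By day 14, 3 of 9 were up relative to day 0 (16.8% of all tested genes). Relative to day 3, 2 were down, ITGA2B and ITGB3 themselves (7.26% of all tested genes). The summed platelet level was above day 0 in 13 of 15 animals on day 3 and still in 12 on day 14. ITGA5 and ITGA6, the alpha chains of fibronectin and laminin receptors, fell on day 14 vs. day 0, by 0.87 and 0.45 on the log2 scale (adjusted p = 0.000239 and 0.00215).

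**Figure D5:**
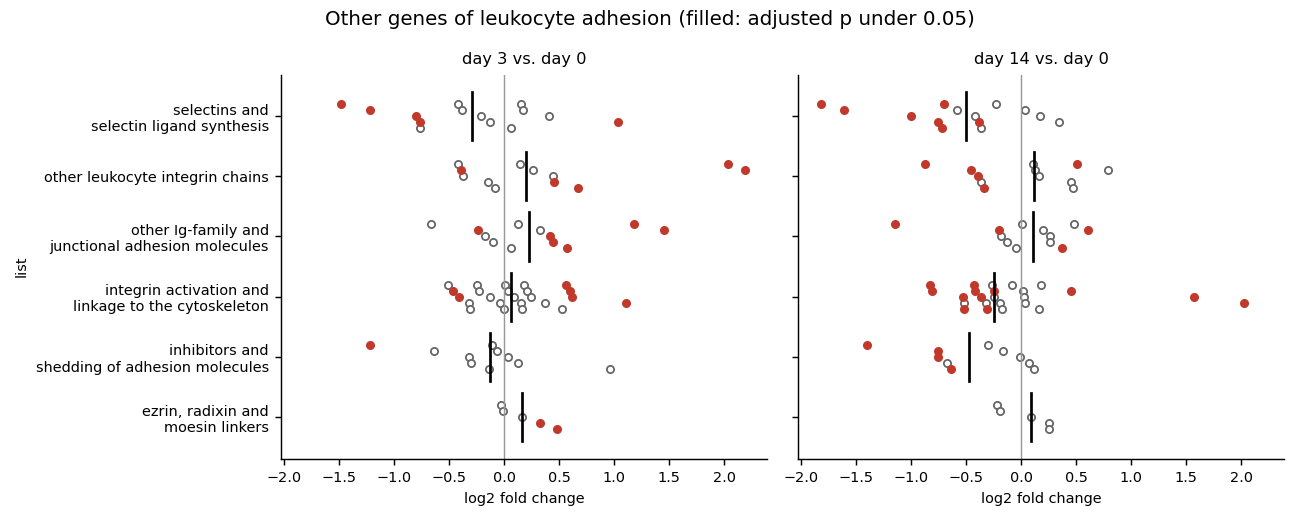
Log2 fold change (x axis) of the tested genes of 6 adhesion lists (y axis, spread vertically for legibility) on day 3 and day 14 vs. day 0. Each point is a gene, filled at an adjusted p under 0.05, and black bars are list medians. Of 14 tested genes for selectins and their ligands, 7 are filled on day 14, all to the left of 0.

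Genes that switch integrins on changed in both directions. In the list of integrin activation and linkage to the cytoskeleton, 12 of 24 tested genes were called on day 14 vs. day 0, 3 up and 9 down, against 36.1% of all tested genes (16.8% up and 19.3% down). RAP1A, the small GTPase that drives integrin activation, rose from 115 ± 91.3 to 490.0 ± 339 FPKM (log2 fold change 2.02, adjusted p = 1.57e-05, 14 animals higher). TLN2, a talin, which links integrin tails to actin, rose from 0.724 ± 0.306 to 2.73 ± 1.79 FPKM (1.57, adjusted p = 2.51e-05). The third rise was that of RAP1B (0.45, adjusted p = 0.0101), named after its value was seen, which was at 0.06 (adjusted p = 0.741) without TMM scaling and at 0.36 (adjusted p = 0.111) with the RNA integrity number. APBB1IP, which couples RAP1 to talin, and the adaptor PXN fell, by 0.81 (adjusted p = 0.000422) and by 0.83 (adjusted p = 0.00513) on the log2 scale. Without the libraries that stood apart the fall of APBB1IP was called (−0.54, adjusted p = 0.0048) and that of PXN was not (−0.51, adjusted p = 0.0501).

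Among the inhibitors and sheddases, 4 of 10 tested genes were down and 0 up on day 14 vs. day 0, a share near the 36.1% of all tested genes called in that comparison (19.3% down). MMP9, a protease of neutrophil granules, went from 164 ± 190.0 to 43.9 ± 28.9 FPKM (log2 fold change −1.40, adjusted p = 0.00621). ADAM8, a sheddase of leukocyte surface proteins, went from 58.5 ± 46.7 to 27.4 ± 6.18 FPKM (−0.75, adjusted p = 0.0186). Neither was called without the libraries that stood apart (0.0723 and 0.254). The others were ADAM17, a sheddase of many surface proteins (−0.64, adjusted p = 0.000297), and SIPA1, an inhibitor of RAP1 (−0.75, adjusted p = 0.000561), both named after their values were seen. Without those libraries they were called at −0.40 and −0.49 (adjusted p = 0.00515 and 0.00725).

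Of the other adhesion molecules of the immunoglobulin family, 12 of 16 were tested. SIRPA, an inhibitory receptor of myeloid cells, fell from 21.3 ± 12.4 to 8.76 ± 3.23 FPKM on day 14 vs. day 0 (log2 fold change −1.14, adjusted p = 0.000136). Its ligand CD47 fell by 0.24 on day 3 (adjusted p = 0.0267) and by 0.20 on day 14 (adjusted p = 0.0303) on the log2 scale. Without the libraries that stood apart these log2 fold changes were −0.22 and −0.17, and neither was called (adjusted p = 0.069 and 0.0763). The fall of CD47 on day 3 was not called without TMM scaling either (−0.28, adjusted p = 0.258). CD99L2, which takes part in the passage of leukocytes through endothelium, rose by 0.37 on day 14 vs. day 0 (adjusted p = 0.0135) with TMM scaling and was at −0.02 (adjusted p = 0.943) without it. ICAM5, the ICAM of neurons, was called up (0.61, adjusted p = 0.0477), but from 0.0978 ± 0.0615 to only 0.245 ± 0.239 FPKM, levels close to the 0.1 added before the logarithm, and was not called without TMM scaling (adjusted p = 0.125). PECAM1, which guides leukocytes between endothelial cells, was 23.7 ± 3.34, 25.8 ± 3.35 and 21.0 ± 3.57 FPKM and fell on day 14 vs. day 3 (log2 fold change −0.31, adjusted p = 0.0163, 14 animals lower). CD2, the lymphocyte receptor of CD58, rose by 0.36 over the same interval (adjusted p = 0.0411, 14 animals higher), but was at 0.00 without TMM scaling. The endothelial counter-receptors SELE, VCAM1 and MADCAM1 had mean levels of at most 0.0396 FPKM at every time point and were not tested.

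The other 5 genes had nearest neighbours of their own. For SELPLG the 5 genes with the highest r were TNFRSF1A, VASP, B4GALNT3, CXCR2 and NLRX1 (0.89 to 0.90), and for ITGAM they were RASGRP4, SIGLEC14, GPR97, ATG7 and PTPRE (0.88 to 0.90). SELPLG and ITGAM had an r of 0.70 with each other. For ITGAL they were MADD, ELMO2, DYNC1H1, TRAPPC10 and IKZF3 (0.81 to 0.86), for ITGB2 NUCB1, DNAJC5, ACTN4, CAPN1 and MYH9 (0.83 to 0.84), and for ITGA4 HCFC2, AKAP5, ANKRD50, FAM208A and ADAM10 (0.75 to 0.81). ITGA4 ran opposite to the myeloid chain, with an r of −0.47 with ITGAM and of −0.37 with SELPLG. All these values are over the same 45 libraries of 15 animals, which share cell composition and scaling.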

How the data were processed

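Whole-blood RNA in PAXgene tubes was sequenced from TruSeq stranded libraries after removal of ribosomal and globin RNA. The authors aligned the reads to Chlorocebus_sabeus 1.1 with STAR, counted fragments per gene with HTSeq, and deposited FPKM, 1 table per library and 33994 rows in each. How reads that match several genes were counted is not given in the sources used here, and ITGAL, ITGAM, ITGAX and ITGAD are related copies. From the FPKM steps, 100% of the values above 0 came out as whole fragments (within 0.01), which gave the depths; PCR duplicates are included in them. A symbol listed on 2 rows was left out.

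FPKM were scaled by TMM (30% of log ratios and 5% of mean levels trimmed), 0.1 was added, and log2 values were tested with limma 3.58.1 in R 4.3.3, with 1 mean per time point over all 45 libraries, in place of the study's negative binomial model, since the deposited values are FPKM. The recovered fragments served for depth, the filter, the TMM factors and some of the alternatives. Genes needed more than 0.5 CPM in at least 3 libraries. Samples were grouped by the labelled day (0, 3 or 14). Libraries of the same animal correlated in their deviations from the time point means (mean r 0.328, against −0.023 for different animals; 38 of 45 libraries matched their own animal best), and the labels name the animal, so the animal was used as a block in an alternative. Other alternatives were the RNA integrity number as a covariate, other scalings, pseudocounts of 0.01 and 1, no filter, a variance trend, voom weights on the recovered fragments, and each animal left out in turn. Leaving out the 4 libraries that stood apart was chosen after seeing the data, as were the correlations with marker sums. The script was tested on simulated data with known changes.

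The genes, lists and markers were chosen with earlier results of these data known. All 8 genes are described. From the adhesion lists the text names, for day 14 vs. day 0, up to 2 called genes per list and direction with the largest change, the same over all lists for the other comparisons, and ITGAX, ITGAD, ITGB1, ITGB7 and PECAM1. A reference annotation table of another assembly (mChlSab1.0.hap1) was used only for names and neighbours. Results of some listed genes are not reported here.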

Additional observations from a re-analysis of the deposited data

How the results depend on the processing

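Of the 24 log2 fold changes of the 8 genes, 15 stayed on the same side of the threshold under every alternative, and none changed its direction past the threshold. The number of the 8 genes called was 2 on day 3 vs. day 0 under every alternative. On day 14 vs. day 0 it was 5, against 3 with a term for the RNA integrity number and 3 without the 4 libraries that stood apart. On day 14 vs. day 3 it was 1, against 3 with the animal as a replicate block, 6 without TMM scaling, 2 with voom weights, and 0 with the RNA integrity number, without the filter, or without the 4 libraries. With 1 animal left out at a time these counts lay between 2 and 2, 4 and 5, and 0 and 2. Beyond the calls named beside the results, the block changed none of those of the 8 genes.

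Of the 77 adhesion genes, 25 were called on day 3 vs. day 0, against 14 with the RNA integrity number, and 13 to 26 with an animal left out. On day 14 vs. day 0, 32 were called, against 20 with that covariate, 20 with the covariate and the replicate block together, 49 without TMM scaling, and 25 to 34 with an animal left out. On day 14 vs. day 3, 18 were called, against 28 with the replicate block, 11 with the RNA integrity number, 46 without TMM scaling, and 11 to 24 with an animal left out. With the RNA integrity number, calls of ITGB1, CD99L2, CD47, RAP1B, PXN, MMP9, ADAM8 and CD2 were lost, and those of CD24 and GCNT1 on day 3. The log2 fold changes behind these calls kept their sign and were smaller by differing amounts. That of CD47 on day 3 vs. day 0 went from −0.24 to −0.23, and that of CD99L2 on day 14 vs. day 0 from 0.37 to 0.21. CD99L2 changed its sign without TMM scaling on day 14 vs. day 0 (−0.02). The RNA integrity number was above day 0 in 10 of 15 animals on day 3 and in 13 on day 14, so it moves with time; the cause of these shifts was not tested.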
